A study of Mus musculus with 14 samples.

Results

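Sox9, Runx1, Meox1, Scx, Prrx1, Twist1, Snai1, Tcf21 and Tbx18 encode transcription factors of resting and activated cardiac fibroblasts. These 9 genes were chosen by name from the 49315 genes of the count table, with earlier results of these data known, and all 9 were among the 15292 genes with enough reads for a test. The list was drawn up with 2 comparisons in view, TAC against Sham in HCN4F mice and HCN4F against WT mice after TAC. The values of the 9 genes in these comparisons, and in the difference between the TAC responses, are therefore descriptions that carry no test.

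RNA came from the left ventricle of male mice that were 10 to 12 weeks old at surgery, and it was polyA-selected and sequenced 5 weeks later. HCN4F mice carry the Y527F substitution, in which tyrosine is replaced by phenylalanine in the pacemaker channel HCN4. It is a gain-of-function knock-in of the endogenous gene in every cell type, and the number of mutant copies and the strain are not given in the sources used here. Transverse aortic constriction (TAC) narrows the aortic arch and loads the left ventricle with pressure, and Sham animals had surgery without the constriction. The groups were WT-Sham (n = 4), HCN4F-Sham (n = 4), WT-TAC (n = 2, replicates 2 and 3) and HCN4F-TAC (n = 4). The libraries are labelled as biological replicates and are compared as separate animals, and each group stands for 1 mouse line at 1 time point.

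Depth was 22309914 to 35210939 counts per library. Levels are library-scaled read counts (CPM) on the scale of edgeR's TMM normalization. At this depth the 9 genes had between 44 counts (Runx1) and 1449 counts (Prrx1) in a library, so none of them was near 0. The dissected tissue carried its defining markers in every library, with a summed level of the ventricular cardiomyocyte genes Myl2, Myh6, Tnni3, Tnnt2 and Actn2 of 37950 to 57061 CPM.

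Cardiac fibroblasts arise largely from the epicardium, the outer cell layer of the heart, and keep a resting state in which Tcf21 is a usual lineage marker. Under pressure load or injury they divide, lay down collagen and can turn into contractile myofibroblasts, and several factors are known to be switched on or to be required along this path. Fibroblasts are a minority of the cells in a ventricle, so a transcript that only they make is diluted by cardiomyocyte RNA. In bulk tissue, fewer cells of a type and less RNA per cell cannot be told apart.

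In GRCm38, with gene models from GENCODE M21, Sox9 (ENSMUSG00000000567) lies at chr11:112782224-112787760 on the plus strand and Meox1 at chr11:101877510-101894374 on the minus strand. Runx1 lies at chr16:92601466-92826149 (minus) and Prrx1 at chr1:163245119-163313710 (minus), both long genes with several introns. Twist1 is at chr12:33957671-33959829 (plus), Snai1 at chr2:167538195-167542814 (plus) and Tcf21 at chr10:22817281-22820174 (minus). Scx is at chr15:76457452-76459458 (plus), inside an intron of Bop1 on the opposite strand. Tbx18 is at chr9:87702800-87731260 (minus), on the chromosome that carries Hcn4 and 28.8 Mb away from it. The use of strand in counting is not given in the sources used here, so reads of Bop1 pre-mRNA and of Scx cannot be told apart. Bop1 stood between 25.1 and 29.9 CPM as a mean in each of the groups, and its 4 log2 fold changes lay between -0.10 and 0.25. D030062O11Rik overlaps 20.6% of the exon bases of Tbx18 from the other strand and did not exceed a mean of 0.179 CPM in any group.

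The promoter windows of 3 of these genes are shown because Runx1 and Snai1 were about 2 times higher after TAC in HCN4F hearts while Tcf21 was nearly level. RefSeq windows on GRCm38.p6 were found for 6 of the 9 genes, with 2 start sites for Runx1. The 250 bases before each start site are printed 5′ to 3′ on the gene's strand, and capitals mark matches to the E-box CAGNTG, the core bound by basic helix-loop-helix factors such as Twist1, Scx and Tcf21.
Runx1, upstream start, chr16:92826075-92826324, minus strand: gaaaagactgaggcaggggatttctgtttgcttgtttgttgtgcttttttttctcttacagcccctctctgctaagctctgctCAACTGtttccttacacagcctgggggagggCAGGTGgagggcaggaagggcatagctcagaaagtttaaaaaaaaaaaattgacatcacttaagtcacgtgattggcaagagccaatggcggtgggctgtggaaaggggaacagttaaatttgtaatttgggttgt
Snai1, chr2:167537945-167538194, plus strand: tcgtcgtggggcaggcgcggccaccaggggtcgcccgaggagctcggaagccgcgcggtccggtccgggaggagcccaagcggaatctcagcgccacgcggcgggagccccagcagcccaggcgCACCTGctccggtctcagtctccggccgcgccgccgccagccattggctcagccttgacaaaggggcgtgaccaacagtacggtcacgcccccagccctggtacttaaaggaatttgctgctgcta
Tcf21, chr10:22820144-22820393, minus strand: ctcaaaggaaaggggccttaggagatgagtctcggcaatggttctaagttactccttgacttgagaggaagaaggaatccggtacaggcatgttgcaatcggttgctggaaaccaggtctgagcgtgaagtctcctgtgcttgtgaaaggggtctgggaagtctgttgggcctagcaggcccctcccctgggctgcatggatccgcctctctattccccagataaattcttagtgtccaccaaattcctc

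Runx1 held 2 E-boxes in its upstream window and Snai1 held 1, and 44.8% of all 32851 mouse promoter windows of this length hold at least 1 on either strand. Other motifs were searched on both strands, namely TGANTCA for AP-1 (in 6.75% of all windows), CATTCC for TEAD (12.6%), ATTGTT for SOX (9.42%) and TGTGGT for RUNX (14.05%). None of these was present in the 3 windows shown. Of the others, the Prrx1 window and the inner Runx1 window held 1 TEAD match each, the Twist1 window 1 SOX match and the Tbx18 window 1 E-box. A match is a run of letters and not a site shown to be bound.

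Per kilobase of exon, a scale on which genes can be compared, Meox1 had the highest level of the 9 in WT-Sham hearts, with a mean of 5.77 CPM per kb. Scx (3.86), Prrx1 (3.54) and Tcf21 (3.33 CPM per kb) followed, and the ranges of these 3 genes over the libraries overlapped. Snai1 (1.38) and Twist1 (1.29 CPM per kb) also overlapped, as did Sox9 (0.631) and Tbx18 (0.572 CPM per kb), and Runx1 was lowest at 0.189 CPM per kb. The exon lengths join all annotated transcripts of a gene and understate the level of genes with long alternative exons, such as Runx1 and Prrx1. In HCN4F-TAC hearts Meox1 was again highest at 16.0 CPM per kb, and Sox9 had a mean of 1.81 CPM per kb.

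Sox9 is an SRY-box factor that directs cartilage formation and activates matrix genes in fibroblasts. Its level was 2.66, 2.58, 2.56 and 2.65 CPM in the WT-Sham libraries and 3.12, 3.29, 2.17 and 2.60 CPM in the HCN4F-Sham libraries. After TAC it was 2.92 and 2.38 CPM in WT hearts and 7.30, 7.31, 6.11 and 9.27 CPM in HCN4F hearts. All 4 HCN4F-TAC libraries thus lay above all 10 others, which overlapped among themselves. The group means were 2.61 ± 0.0499 (SD, n = 4) in WT-Sham, 2.79 ± 0.510 (n = 4) in HCN4F-Sham, 2.65 ± 0.382 (n = 2) in WT-TAC and 7.50 ± 1.31 CPM (n = 4) in HCN4F-TAC. HCN4F-TAC was 2.69 times HCN4F-Sham (log2 fold change 1.43, SE 0.15) and 2.85 times WT-TAC (1.51, SE 0.19).

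Meox1 is a mesodermal homeobox factor known as a stress-dependent regulator of fibroblast activation. It measured 15.4, 11.9, 9.94 and 14.2 CPM in WT-Sham and 12.7, 16.2, 10.2 and 13.8 CPM in HCN4F-Sham. WT-TAC hearts had 15.2 and 19.2 CPM, and HCN4F-TAC hearts had 43.5, 38.2, 19.4 and 42.0 CPM. HCN4F-TAC replicate 3 was only just above the higher WT-TAC library, whereas the other 3 were about 2 times as high or more. The log2 fold change was 1.43 (SE 0.23) against HCN4F-Sham and 1.05 (SE 0.29) against WT-TAC.

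Runx1, a Runt-domain factor best known from blood formation and switched on in injured heart tissue, was likewise highest in HCN4F-TAC, at a lower level, with the means of the other groups close together. It measured 2.25, 1.96, 2.22 and 2.68 CPM in WT-Sham, 1.66, 2.60, 2.64 and 2.08 in HCN4F-Sham, 1.89 and 2.58 in WT-TAC, and 4.69, 4.74, 2.86 and 5.94 in HCN4F-TAC. Replicate 3 was again the lowest HCN4F-TAC library and lay close to the highest values of the other groups. The log2 fold change was 1.02 (SE 0.21) against HCN4F-Sham and 1.01 (SE 0.26) against WT-TAC.

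Scx, the helix-loop-helix factor of tendon that also drives collagen genes in cardiac fibroblasts, differed from these 3 genes in where its groups parted. Its HCN4F-Sham libraries, at 6.89, 6.25, 3.83 and 3.65 CPM, were all below the WT-Sham libraries at 6.99, 7.94, 8.22 and 7.81 CPM. WT-TAC hearts had 8.50 and 7.64 CPM, within or just above the WT-Sham range. HCN4F-TAC hearts spread widely, at 6.64, 16.5, 8.37 and 11.2 CPM, and overlapped every other group. The log2 fold change of HCN4F-TAC was 1.07 (SE 0.26) against HCN4F-Sham, the group with the lowest mean (5.16 CPM), and 0.41 (SE 0.31, 95% interval -0.25 to 1.08) against WT-TAC.

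**Figure D1:**
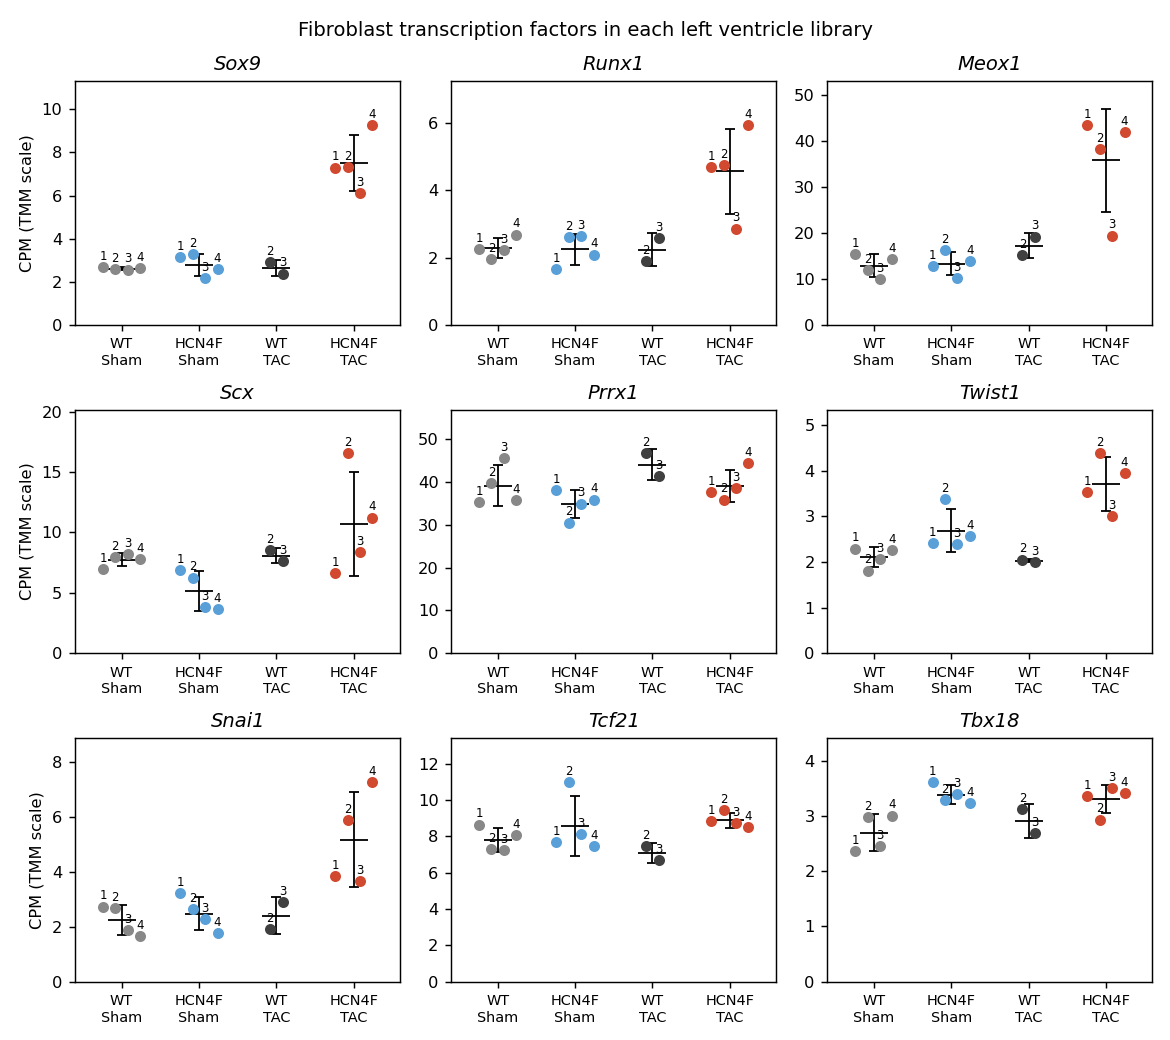
Level of each factor in CPM (vertical axes, from 0) in each left ventricle library, by group; points are libraries with their replicate number, and the bar and whiskers are the group mean and SD. For Sox9 the 4 HCN4F-TAC libraries (6.11 to 9.27 CPM) sit above all other libraries, while Prrx1, Tcf21 and Tbx18 show no such step.

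Snai1, Twist1 and Prrx1 are factors of mesenchymal cells, and Snai1 and Twist1 are known for repressing epithelial genes in epithelial-to-mesenchymal transition. Snai1 measured 2.74, 2.68, 1.87 and 1.67 CPM in WT-Sham, 3.24, 2.65, 2.28 and 1.78 in HCN4F-Sham, 1.93 and 2.89 in WT-TAC, and 3.86, 5.89, 3.67 and 7.28 in HCN4F-TAC. All HCN4F-TAC libraries were above all others, with replicates 2 and 4 well above replicates 1 and 3. The log2 fold change was 1.07 (SE 0.25) against HCN4F-Sham and 1.08 (SE 0.31) against WT-TAC.

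Twist1 moved over a smaller range. Its HCN4F-Sham libraries (2.41, 3.38, 2.39 and 2.57 CPM) were all above the WT-Sham libraries (2.29, 1.81, 2.06 and 2.25 CPM), WT-TAC had 2.05 and 2.00 CPM, and HCN4F-TAC had 3.53, 4.38, 3.00 and 3.95 CPM. HCN4F-Sham replicate 2 reached into the HCN4F-TAC range. The log2 fold change was 0.48 (SE 0.16) for HCN4F-TAC against HCN4F-Sham and 0.87 (SE 0.20) against WT-TAC.

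Prrx1, a homeobox factor of embryonic mesenchyme and adult fibroblasts, stayed between 30.5 and 46.7 CPM in all 14 libraries. It measured 35.3, 39.8, 45.7 and 35.7 CPM in WT-Sham, 38.2, 30.5, 35.0 and 35.9 in HCN4F-Sham, 46.7 and 41.5 in WT-TAC, and 37.6, 35.9, 38.6 and 44.4 in HCN4F-TAC. The group means ran from 34.9 CPM in HCN4F-Sham to 44.1 CPM in WT-TAC, and the libraries of neighbouring groups in that order overlapped. Against WT-TAC its log2 fold change in HCN4F-TAC was -0.17 (SE 0.12, 95% interval -0.42 to 0.07).

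Tcf21 and Tbx18, the factors of resting fibroblasts and of the epicardium from which they derive, were close to level after TAC in both genotypes. Tcf21 measured 8.65, 7.29, 7.26 and 8.07 CPM in WT-Sham, 7.68, 11.0, 8.13 and 7.46 in HCN4F-Sham, 7.48 and 6.70 in WT-TAC, and 8.83, 9.45, 8.72 and 8.50 in HCN4F-TAC. The HCN4F-TAC libraries all lay above the pair of WT-TAC libraries, by a log2 fold change of 0.33 (SE 0.15), and within the range of HCN4F-Sham. Tbx18, which also patterns the sinus node during development, measured 2.37, 2.97, 2.45 and 3.01 CPM in WT-Sham and 3.61, 3.29, 3.40 and 3.23 CPM in HCN4F-Sham. After TAC it was 3.12 and 2.69 CPM in WT and 3.36, 2.93, 3.50 and 3.42 CPM in HCN4F hearts, so its higher values followed the genotype in Sham and overlapped after TAC.

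The first comparison that the choice of genes did not use directly asks whether TAC changed these factors in WT hearts. It shares the 2 WT-TAC libraries with HCN4F against WT after TAC and with the difference of TAC responses. Choosing genes by these could favour low WT-TAC values, so its results are not independent of the choice. Genes count as called at an adjusted p under 0.05 together with a log2 fold change of over 1 in size. None of the 9 genes was called by edgeR's quasi-likelihood test or by DESeq2, against 0.706% of all tested genes with edgeR, and none had an unadjusted p under 0.05, where 3371 of the 15292 tested genes did. None had WT-TAC libraries that all lay above the WT-Sham libraries, a pattern that 19.2% of tested genes showed with 2 libraries against 4. Their median log2 fold change was 0.06, beside -0.02 for all tested genes.

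Meox1 had the largest value of the 9 in WT hearts, a log2 fold change of 0.42 (SE 0.28, 95% interval -0.19 to 1.04), with an adjusted p of 0.404 by edgeR's quasi-likelihood test, adjusted after Benjamini and Hochberg. For Sox9 the same test gave 0.01 (SE 0.20, 95% interval -0.40 to 0.42) with an adjusted p of 0.987. The interval of Sox9 leaves out a change of 2 times in either direction, while the upper bound of Meox1 does not. Runx1 had -0.02 (95% interval -0.57 to 0.54), Scx 0.06 (-0.61 to 0.72), Snai1 0.13 (-0.54 to 0.80) and Twist1 -0.06 (-0.48 to 0.37). Prrx1 had 0.17 (-0.07 to 0.42), Tcf21 -0.15 (-0.45 to 0.16) and Tbx18 0.10 (-0.24 to 0.43). With 2 WT-TAC libraries these intervals are wide, and a p that misses the threshold does not show that a gene stayed level. The intervals take no account of how the genes were chosen.

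The second such comparison, HCN4F against WT in Sham hearts, asks whether the knock-in alone went with a change in these factors. It shares the HCN4F-Sham libraries with TAC against Sham in HCN4F mice, so it is not independent of the choice either. None of the 9 genes was called with edgeR or DESeq2, against 0.209% of tested genes with edgeR, and 2 had an unadjusted p under 0.05 in edgeR, where 2323 of the 15292 tested genes did. Scx had a log2 fold change of -0.60 (SE 0.26, 95% interval -1.16 to -0.03; adjusted p = 0.301, edgeR's quasi-likelihood test, adjusted after Benjamini and Hochberg) and was lower in 4 of 4 HCN4F libraries. Tbx18 had 0.32 (SE 0.13, 95% interval 0.05 to 0.60; adjusted p = 0.252 by the same edgeR test) and Twist1 had 0.34 (SE 0.16; adjusted p = 0.331 by the same edgeR test), both higher in 4 of 4. Over all tested genes, 3.89% had HCN4F-Sham libraries all above WT-Sham and 4.67% all below. The other 6 genes lay between -0.16 (Prrx1) and 0.14 (Snai1) with overlapping libraries, and the median of all 9 was 0.09 beside 0.00 for all tested genes. Whether the position of Tbx18 on the chromosome of the edited gene plays a part in its values was not tested.

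In the comparisons that the choice of genes used, TAC in HCN4F hearts took 5 of the 9 genes past the call thresholds upward with edgeR and with DESeq2, namely Sox9, Runx1, Meox1, Scx and Snai1. The background was 1.58% of tested genes called higher and 2.75% called in either direction, and nothing is read from the difference because the genes were picked with this contrast in view. Sox9, Runx1, Meox1 and Snai1 had HCN4F-TAC libraries all above HCN4F-Sham, as had 7.95% of tested genes. The median log2 fold change of the 9 was 1.02, beside -0.01 for all tested genes. Prrx1 (0.16, SE 0.10), Tcf21 (0.06, SE 0.12) and Tbx18 (-0.04, SE 0.13) were the 3 with the smallest values.

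Which genes passed depended on single libraries and, for Scx, on the fit. Runx1 (1.02), Scx (1.07) and Snai1 (1.07) had log2 fold changes just above the threshold of 1. Scx missed the threshold of the adjusted p with no filter on low counts, at a log2 fold change of 1.09, and with edgeR on the compared groups, at 1.05. Sox9 and Meox1 alone were past the thresholds without HCN4F-Sham replicate 4 (2.43% of genes called) or without HCN4F-TAC replicate 2 (1.79%). Without HCN4F-TAC replicate 4, Sox9, Meox1 and Scx were (2.42%), with Runx1 at 0.87 and Snai1 at 0.86. Runx1 was at 0.90 without HCN4F-Sham replicate 1, and Scx was at 0.94 without HCN4F-Sham replicate 3 and at 0.77 without HCN4F-TAC replicate 2. Over all libraries left out in turn, the log2 fold change stayed between 1.31 and 1.52 for Sox9 and between 1.32 and 1.64 for Meox1.

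Between the genotypes after TAC, Sox9 was the only one of the 9 past the thresholds with edgeR, against 0.0392% of tested genes called higher and 0.0719% in either direction. DESeq2 fitted on all groups called 4 (Sox9, Runx1, Meox1 and Snai1), against 0.471% of tested genes called higher. Sox9, Runx1, Meox1, Twist1, Snai1 and Tcf21 had HCN4F-TAC libraries all above WT-TAC, as had 11.3% of tested genes with 4 libraries against 2. The median log2 fold change of the 9 was 0.87, beside 0.00 for all tested genes. These calls and shares describe genes picked with this contrast in view, and nothing is read from the difference between them.

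This comparison turned on 2 libraries. Without HCN4F-TAC replicate 3, edgeR called the same 4 genes as DESeq2 did, while the share of all tested genes called went to 1.03%. Without WT-TAC replicate 3 it called none of the 9, against 0.0442% of tested genes, with Sox9 at a log2 fold change of 1.36. Fits on the 6 TAC libraries alone called none with edgeR (0.0206% of genes) and 2 with DESeq2 (Sox9 and Meox1, 0.494% of genes). Over the libraries left out in turn, Sox9 stayed between 1.36 and 1.65, Runx1 between 0.82 and 1.26, Meox1 between 0.90 and 1.25 and Snai1 between 0.84 and 1.42.

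The difference of the TAC response between the genotypes, HCN4F minus WT, was 1.42 on the log2 scale for Sox9 (SE 0.25, 95% interval 0.90 to 1.94). It was 1.04 for Runx1 (SE 0.34), 1.01 for Meox1 (SE 0.37), 1.01 for Scx (SE 0.41), 0.94 for Snai1 (SE 0.40) and 0.53 for Twist1 (SE 0.26). Tcf21 (0.20), Prrx1 (-0.01) and Tbx18 (-0.13) were near 0. With edgeR, 0 of the 9 and 0% of tested genes had an adjusted p under 0.05 for this difference, although 1418 of the 15292 tested genes and 5 of the 9 had an unadjusted p under 0.05. Since the genes were chosen with these responses known, these counts and the calls that follow are descriptions, and nothing is read from them. Sox9 alone was called by DESeq2 on all groups (0.262% of genes) and by edgeR with no filter on low counts (0.0570%). Without HCN4F-TAC replicate 3, Sox9 and Meox1 were called by edgeR (0.510%).

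**Figure D2:**
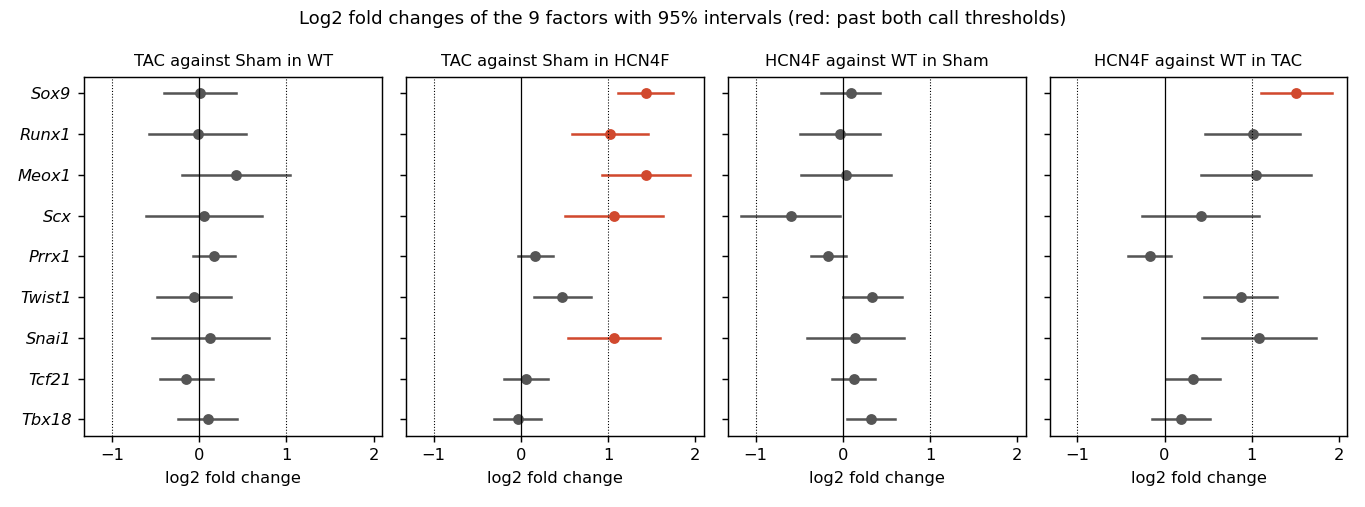
Log2 fold change (horizontal axis) of each factor in 4 comparisons, with 95% intervals from the edgeR fit; red marks values past both call thresholds and dotted lines a log2 fold change of 1 and -1. In WT hearts after TAC all 9 values lie between -0.15 and 0.42, and in HCN4F hearts Sox9 and Meox1 both reach 1.43.

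The genes that activated fibroblasts express were read beside their factors. Of 16 such genes, 9 rose after TAC in HCN4F hearts by edgeR's quasi-likelihood test, beside 1.58% of all tested genes called higher. At an unadjusted p under 0.05 were 14 of the 16, beside 4323 of the 15292 tested genes. The 9 include a low transcript that passed the filter on low counts only through HCN4F-TAC libraries. Among the 9 were Postn, the matricellular protein periostin (log2 fold change 2.07, SE 0.32; adjusted p = 0.00189 by the same edgeR test), Cilp (3.27, SE 0.43), Ltbp2 (2.97, SE 0.43), which binds microfibrils, and Thbs4 (2.87, SE 0.41). The most abundant were the fibrillar collagens Col3a1 (1.00, SE 0.18), Col1a1 (1.14, SE 0.18) and Col1a2 (0.90, SE 0.15), of which Col1a1 passed both thresholds. Postn measured 18.4 to 24.4 CPM in HCN4F-Sham and 92.8, 155, 37.5 and 96.2 CPM in HCN4F-TAC, with replicate 3 lowest, as for Meox1 and Runx1. Acta2, the smooth muscle actin used as a myofibroblast marker and also abundant in vessel walls, did not pass (-0.33, SE 0.20). The list's median was 1.17, beside -0.01 for all tested genes. This list and those below were drawn up with results of these data known. Calls and p of their genes are therefore descriptions, and nothing is read from them.

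In WT hearts 0 of the 16 were called by edgeR, 3 had an unadjusted p under 0.05 (3371 of the 15292 tested genes did), DESeq2 on all groups also called 0, and the median was 0.20. Postn measured 17.7 to 20.6 CPM in WT-Sham and 32.5 and 28.9 CPM in WT-TAC, a difference of 0.69 on the log2 scale (SE 0.38) that did not pass (adjusted p = 0.320 by edgeR's quasi-likelihood test). Between the genotypes after TAC, edgeR called 0 of the 16 (0.0719% of tested genes), with 13 at an unadjusted p under 0.05, as had 1904 of the 15292 tested genes. DESeq2 on all groups called 6 (0.569% of tested genes), and 15 of 16 were higher in HCN4F-TAC, with a median of 0.88. Without HCN4F-TAC replicate 3, edgeR called 10 of them. In Sham hearts 0 were called by edgeR and by DESeq2 and 0 had an unadjusted p under 0.05, with a median of 0.09.

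Genes that mark resting fibroblasts went both ways. Of 10 such genes, Mfap4 (1.85, SE 0.34) and Pi16 (1.17, SE 0.24) rose and the scavenger receptor gene Scara5 fell by 1.24 on the log2 scale (SE 0.23) after TAC in HCN4F hearts, with adjusted p of 0.00454, 0.00734 and 0.00345 by edgeR's quasi-likelihood test. Among all tested genes 1.58% were called higher and 1.16% lower. Of the resting genes, those not named here as called did not pass both thresholds. Their 3 most abundant genes did not pass, Gsn at -0.16 (SE 0.10), the small proteoglycan gene Dcn at 0.10 (SE 0.09) and Dpt at -0.20 (SE 0.08). Lum (0.51, SE 0.12) and Smoc2 (0.39, SE 0.10) had adjusted p of 0.0103 and 0.0193 by the same edgeR test and stayed under the fold threshold, and 6 of the 10 had an unadjusted p under 0.05, as had 4323 of the 15292 tested genes in this comparison. Pdgfra, the receptor that labels most cardiac fibroblasts, had 0.10 (SE 0.09) in HCN4F and 0.11 (SE 0.12) in WT hearts. The summed level of the 10 was 1376 to 1835 CPM in HCN4F-Sham and 1398 to 1784 CPM in HCN4F-TAC, whereas that of the 16 activated genes went from 717 to 988 CPM to 998 to 1864 CPM. Gsn made up most of the sum of the 10, with a mean of 1030 CPM over the libraries. Between the genotypes after TAC, 9 of the 10 were higher in HCN4F hearts with a median of 0.29, and edgeR and DESeq2 on all groups called 0, with 7 at an unadjusted p under 0.05 beside 1904 of the 15292 tested genes.

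Cartilage and tendon genes were read beside Sox9 and Scx, which direct these tissues. Of 10 cartilage genes 6 were tested. In HCN4F hearts after TAC the matrix genes Comp (3.18, SE 0.55), Col11a1 (2.14, SE 0.56) and Acan (1.55, SE 0.37) rose while Cnmd fell by 1.43 (SE 0.43), by edgeR's quasi-likelihood test. Over all tested genes 1.58% were called higher and 1.16% lower. At an unadjusted p under 0.05 were 4 of the 6, beside 4323 of the 15292 tested genes. Col11a1 was a low transcript, with at most 19 counts in any library. It passed the filter on low counts only through HCN4F-TAC libraries, so its call is a description. Comp measured 1.95 to 5.34 CPM in HCN4F-Sham and 24.1, 47.4, 7.28 and 44.2 CPM in HCN4F-TAC. Col2a1, the defining cartilage collagen, had at most 2 counts in any library, and Col11a2 had -0.14 (SE 0.35). The rise thus covered some of the listed cartilage genes and not Col2a1, which was near 0. Which cells made these transcripts was not tested. In WT hearts Cnmd fell by 2.21 (SE 0.55; adjusted p = 0.0359 by the same edgeR test) and Comp had -0.43 (SE 0.76).

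Of 6 tendon genes 3 were tested and all 3 rose in HCN4F hearts by the same edgeR test, Thbs4 (counted above), Fmod (2.85, SE 0.76; adjusted p = 0.0289) and Col14a1 (1.23, SE 0.22; adjusted p = 0.00300). Over all tested genes 1.58% were called higher in this comparison, and 4323 of the 15292 had an unadjusted p under 0.05. In WT hearts none passed with edgeR or DESeq2 and none had an unadjusted p under 0.05, at -0.03, -0.91 and 0.33. Tnmd, the late tendon marker, had at most 13 counts in any library, and the tendon factor gene Mkx at most 7.

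**Figure D3:**
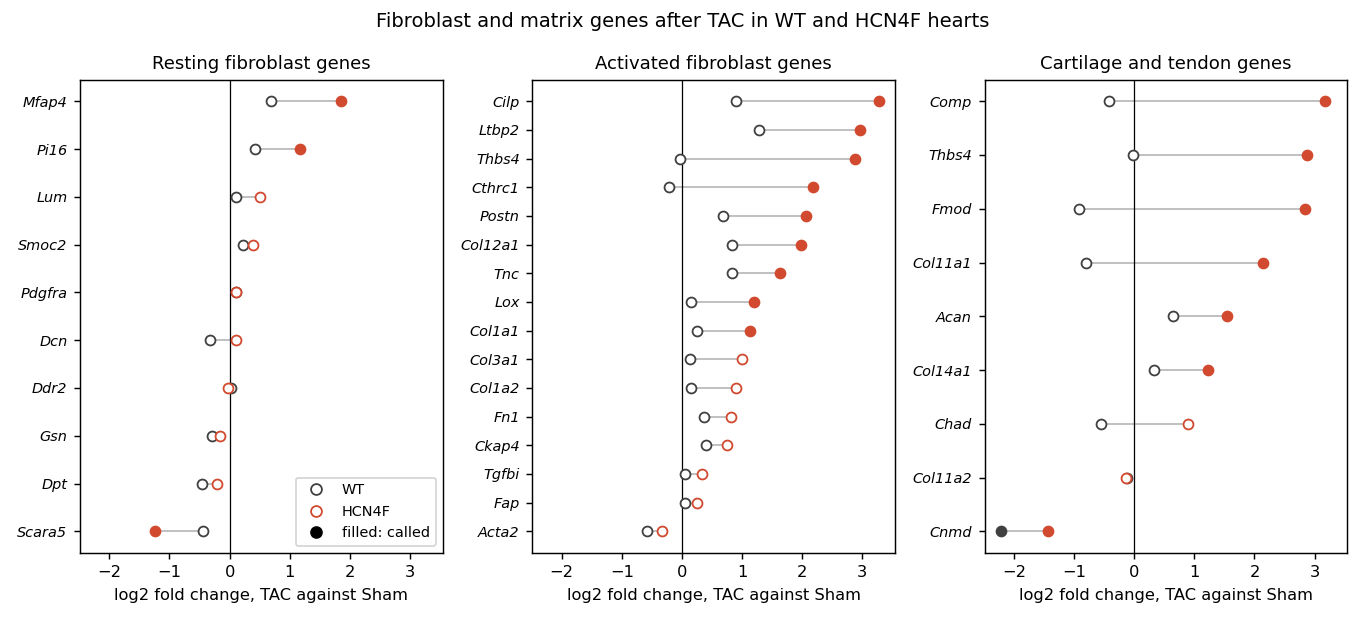
Log2 fold change of TAC against Sham (horizontal axis) in WT (dark) and HCN4F hearts (red) for tested genes of the resting fibroblast, activated fibroblast, cartilage and tendon lists; filled circles passed both call thresholds. In the activated list 9 genes are filled for HCN4F and none for WT, where Cnmd of the cartilage list is the only filled gene.

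Each factor was also expressed relative to the median log2 level of the 10 resting genes in the same library. This scale is not a measure of fibroblast content, since Mfap4, Pi16 and Scara5 of that list changed after TAC in HCN4F hearts. On this scale the 4 HCN4F-TAC libraries for Sox9 (-2.83 to -2.52) were all above HCN4F-Sham (-4.29 to -3.40) and WT-TAC (-3.94 and -3.84). The difference was 1.07 against HCN4F-Sham and 1.17 against WT-TAC. For Meox1 it was 1.05 against HCN4F-Sham with no overlap and 0.70 against WT-TAC with overlap. Runx1 had 0.64 and 0.68, and Snai1 had 0.68 and 0.75, in the same order.

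Prrx1 had -0.17 against HCN4F-Sham and -0.47 against WT-TAC on this scale, below both WT-TAC libraries in all 4 of its HCN4F-TAC libraries. Tcf21 (-0.26) and Tbx18 (-0.37) were lower against HCN4F-Sham with overlapping libraries, and Scx was 0.02 against WT-TAC. The relative scale lowered all values, since the median of the resting genes was itself 5.46 to 5.74 in HCN4F-TAC and 5.08 to 5.45 in HCN4F-Sham (log2 CPM), and signs of small values depended on it.

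**Figure D4:**
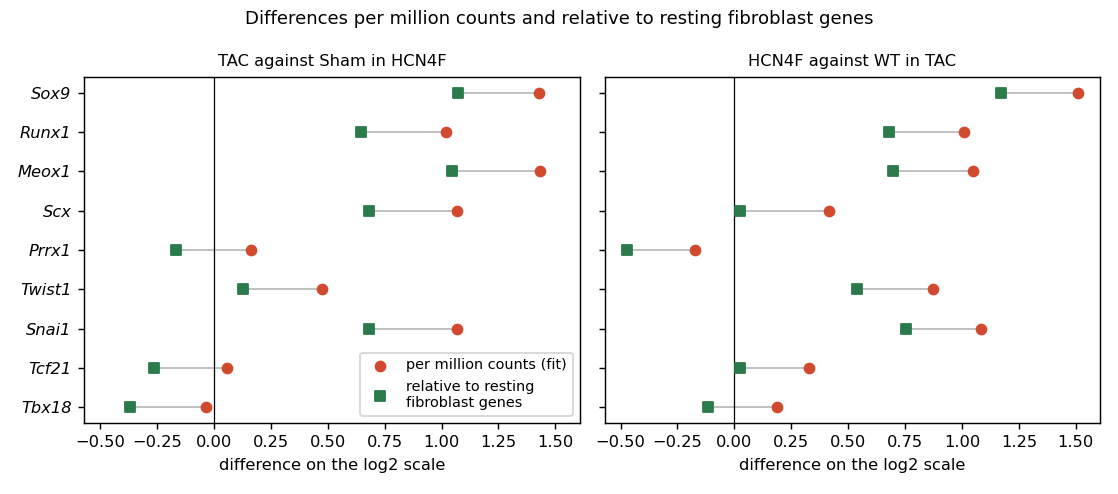
Difference on the log2 scale (horizontal axis) for each factor, as CPM from the edgeR fit (red circles) and relative to the median of the resting fibroblast genes (green squares), for HCN4F-TAC against HCN4F-Sham and against WT-TAC. Sox9 stays above 1 on both scales in both comparisons, and Prrx1 is below 0 in both on the relative scale.

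Markers of other cells that the tissue could hold were summed per library. The atrial genes Dkk3, Myl4, Myl7, Sln and Bmp10 summed to 55.3 CPM in HCN4F-TAC replicate 2 and to 18.4 CPM in replicate 4, beside 3.46 to 9.50 CPM in the other 12 libraries. All 4 HCN4F-TAC sums (from 6.32 CPM) were above those of WT-TAC (4.89 and 5.09 CPM). Bmp10 was at 0 in replicate 2, Myl7 was at 9.91 CPM there and at most 0.694 CPM elsewhere, and Dkk3 rose in HCN4F hearts after TAC (2.09, SE 0.45; adjusted p = 0.00993 by edgeR's quasi-likelihood test). Among the HCN4F-TAC libraries, replicate 2 was also highest for Scx, Twist1, Tcf21 and Postn but not for Sox9, Runx1, Meox1 or Snai1. Replicate 4, with the second highest atrial sum, had the highest Sox9 level. The log2 fold change of Sox9 against HCN4F-Sham was 1.44 without replicate 2 and 1.31 without replicate 4, and against WT-TAC it was 1.51 and 1.39. The part of atrial tissue in the levels of the 9 factors was not tested.

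The 7 leukocyte genes, with Lyz2 (-0.00, SE 0.14), C1qa (0.15, SE 0.17) and Csf1r (0.08, SE 0.14) the most abundant, summed to 161 to 212 CPM in HCN4F-Sham and 154 to 243 CPM in HCN4F-TAC. The ranges overlapped, and replicate 3, low for Runx1 and Meox1, was also the lowest of the HCN4F-TAC libraries here. The 5 endothelial genes (626 to 1166 and 830 to 898 CPM) and the 6 mural genes (857 to 1195 and 862 to 1098 CPM) overlapped too, with Kdr at -0.06, Cdh5 at -0.09, Pecam1 at -0.11, Rgs5 at -0.03, Abcc9 at -0.21, Myh11 at -0.48, Pdgfrb at 0.17 and Cspg4 at 0.17. Of the epicardial genes, 4 of 8 were tested and Krt18 alone rose (1.93, SE 0.45), while Wt1, a factor of the epicardium and of activated fibroblasts, had 0.31 (SE 0.16), Upk3b had -1.88 (SE 1.41), and the sums overlapped at 5.19 to 16.5 and 6.84 to 12.1 CPM. The 5 ventricular cardiomyocyte genes summed to 37950 to 45640 CPM in HCN4F-TAC and to 48911 to 51948 CPM in HCN4F-Sham, with Myh6 at -0.27, Tnnt2 at -0.23, Myl2 at -0.30 and Tnni3 at -0.59, while Actn2 had 0.30. These sums did not overlap. By edgeR's quasi-likelihood test the adjusted p of the 5 ran from 0.00221 (Tnni3) to 0.0397 (Tnnt2), and none passed the fold threshold. Of all tested genes 13.6% had an adjusted p under 0.05 in this comparison. Of the glial genes, those reported here are Sox10 and S100b, and both fell after TAC in HCN4F hearts by edgeR's quasi-likelihood test, by 1.05 (SE 0.26; adjusted p = 0.0132) and 1.13 (SE 0.36; adjusted p = 0.0433). S100b was a low transcript, at 0.470 to 1.41 CPM in HCN4F-Sham and 0.318 to 0.757 CPM in HCN4F-TAC, which overlapped.

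Against WT-TAC, the leukocyte genes were higher in HCN4F-TAC for 7 of 7, with a median log2 fold change of 0.38, among them C1qa at 0.60 (SE 0.21) and Cd68 at 0.74 (SE 0.25). EdgeR and DESeq2 on all groups called 0 of them and 2 had an unadjusted p under 0.05, and the sums overlapped with the 148 and 165 CPM of WT-TAC. The ventricular cardiomyocyte genes were lower for 5 of 5 (median -0.16), again with 0 called by both tools and 1 at an unadjusted p under 0.05, and their HCN4F-TAC sums were all below the 49360 and 50821 CPM of WT-TAC. The endothelial (725 and 935 CPM), mural (1096 and 1180 CPM) and epicardial sums (7.50 and 8.38 CPM) of WT-TAC overlapped with those of HCN4F-TAC. The part of these cells in the levels of the 9 factors was not tested.

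Genes of the same families and pathways, 25 in a list chosen with these data known, give a measure of how far the pattern extends. Of 24 tested, edgeR's quasi-likelihood test called 1 higher and 3 lower in HCN4F hearts after TAC, beside 1.58% and 1.16% of all tested genes. At an unadjusted p under 0.05 were 10 of the 24, beside 4323 of the 15292 tested genes. Prrx2 had 2.30 (SE 0.49), and Sox10, Snai3 and Osr1 fell by 1.05, 1.28 and 1.25 (SE 0.26, 0.28 and 0.31). The adjusted p of the 3 that fell were 0.0132, 0.00614 and 0.0128 by the same edgeR test. Prrx2, the paralogue of Prrx1, is a low transcript, at 0.113 to 0.217 CPM in HCN4F-Sham and 0.871, 1.45, 0.177 and 0.814 CPM in HCN4F-TAC, with replicate 3 at the Sham level. It passed the filter on low counts only through HCN4F-TAC libraries, so its call is a description and no p is given. Runx2 had 0.86 (SE 0.25), Snai2 0.05 (SE 0.23), Twist2 0.46 (SE 0.35), Meox2 -0.25 (SE 0.28) and Cbfb, the partner subunit of Runx proteins, 0.06 (SE 0.07). Of the relatives of Runx1, Snai1, Twist1, Meox1, Prrx1 and Sox9 in the list, Prrx2 was called higher, Snai3 and Sox10 were called lower and the others named here did not pass both thresholds. The most abundant factors of the list were Tbx20 (0.57, SE 0.11), Hand2 (0.16, SE 0.24) and Zeb1 (0.12, SE 0.09), none of them past the fold threshold. In WT hearts edgeR and DESeq2 called 0 of the 24, with 4 at an unadjusted p under 0.05 (3371 of the 15292 tested genes). Between the genotypes after TAC both called 0, with 5 at an unadjusted p under 0.05 (1904 of the 15292 tested genes).

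The genes most like Sox9 over the 14 libraries, by Pearson r of log2 CPM among 12555 genes with a mean of at least 1 CPM, were Itgbl1 (r = 0.946), Col6a3 (0.942), Col4a3 (0.939), Col1a2 (0.935) and Kctd11 (0.934). Col6a3, Col4a3 and Col1a2 encode collagen chains. These correlations are descriptions over libraries that fall into groups, and the step between HCN4F-TAC and the rest makes up much of them. After the group means were taken out, r was 0.587 for Itgbl1, 0.818 for Col6a3, 0.635 for Col4a3, 0.640 for Col1a2 and 0.713 for Kctd11. Since they were picked for this pattern, their log2 fold changes of HCN4F-TAC against WT-TAC are descriptions with no test, at 1.32 (SE 0.22) for Itgbl1, 0.67 (SE 0.16) for Col6a3, 0.99 (SE 0.20) for Col4a3, 0.87 (SE 0.19) for Col1a2 and 1.03 (SE 0.21) for Kctd11.

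**Figure D5:**
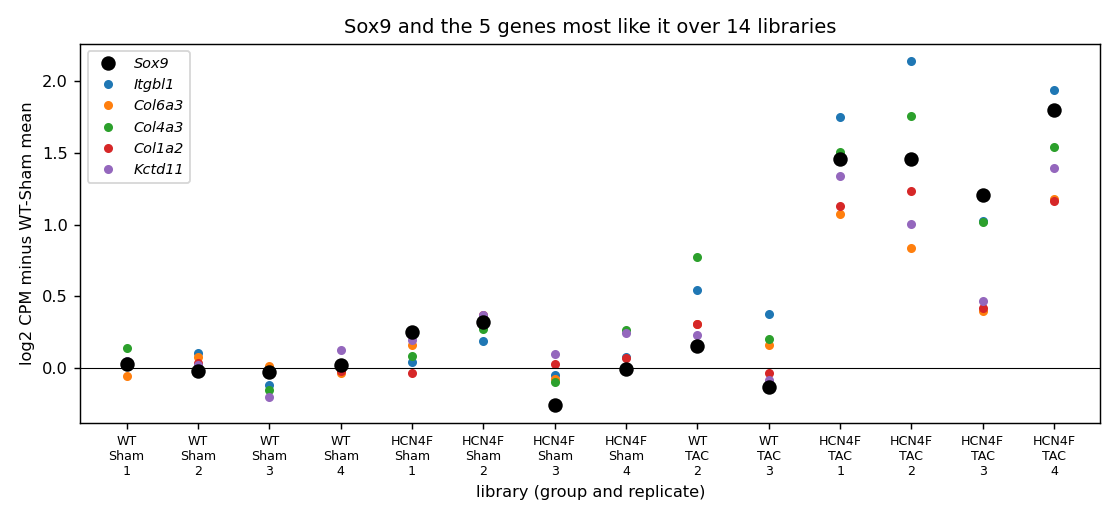
Log2 CPM minus the WT-Sham mean (vertical axis) for Sox9 (large black points) and the 5 genes with the highest r to it, in each of the 14 libraries (horizontal axis, group and replicate). In HCN4F-TAC replicate 3, Col6a3, Col1a2 and Kctd11 lie nearer to the Sham libraries than Sox9 does.

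For the other factors the gene most like each was Loxl3, a lysyl oxidase, for Runx1 (r = 0.961), Emp1 for Meox1 (0.972), Emilin1, an elastic fibre protein, for Twist1 (0.965) and Gm13889 for Snai1 (0.950). Scx was most like Dmpk (0.937), Prrx1 most like Adgra3 (0.902), Tbx18 most like C330027C09Rik (0.881) and Tcf21 most like Zfp513 (0.856). After TAC in HCN4F hearts Emp1 had a log2 fold change of 1.42 (SE 0.18), Loxl3 0.98 (SE 0.16), Gm13889 0.68 (SE 0.16) and Emilin1 0.51 (SE 0.11), and Dmpk, Adgra3, Zfp513 and C330027C09Rik had values from 0.02 to 0.26.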

How the data were processed

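Left ventricular RNA was sequenced on an Illumina platform after polyA selection. The authors deposited raw counts of reads per gene, without normalization. The labels name GRCm38, and the aligner, counting program, annotation and use of strand are not given in the sources used here. The study describes 16 samples, 4 per group. Used here were 14 libraries, grouped by their labels, with 2 for WT-TAC. The table holds 2 further columns, headed TAC and WT, that match no sample given here and were not used in any step, so the WT-TAC values rest on the 2 libraries analysed.

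Counts were TMM-scaled in edgeR 4.0.16 (R 4.3.3) and filtered with filterByExpr by group, which kept 15292 of 49315 genes. All groups were fitted in 1 model, and comparisons used the quasi-likelihood test (robust) with p adjusted over the tested genes after Benjamini and Hochberg. Calls needed an adjusted p under 0.05 with a log2 fold change over 1 in size, and the difference of TAC responses the adjusted p alone. CPM carry no pseudocount, and log2 CPM per library used a prior count of 2. The steps were tested on simulated data. At 0 counts a gene could still hold 3 reads (0.0859 to 0.137 CPM), a limit that covers counting error only.

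The 9 genes, the marker lists and the family list were chosen with earlier results of these data known, so calls and p of list genes are descriptions too. Named are all 9 genes, the 3 most abundant genes of each list, list genes called between the TAC groups, the 5 genes most like Sox9 and the gene most like each other factor. Other list genes were named after their values were seen. Some list genes are not reported here. Alternatives were DESeq2 1.42.0 (all libraries, or those of the compared groups), edgeR on those of the compared groups, DESeq2 size factors, no filter, a mean of at least 1 CPM, non-robust fits, the adjusted p alone, a replicate block, levels relative to resting fibroblast genes, and each library left out in turn. Gene models came from GENCODE M21, in which 99.5% of the IDs were found, and promoters from RefSeq (GRCm38.p6). Plots used matplotlib 3.10.9 (Python 3.11.15).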

Additional observations from a re-analysis of the deposited data

How the results depend on the processing

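Sox9 and Meox1 stayed past the thresholds for TAC against Sham in HCN4F hearts in 16 of 16 alternative fits, Snai1 in 13, Runx1 in 12 and Scx in 11. The number of the 9 factors called there ranged from 2 to 5 over the libraries left out in turn, with 2 without HCN4F-Sham replicate 4 or HCN4F-TAC replicate 2. Between the TAC groups it was 4 with DESeq2 on all groups, 2 with DESeq2 and 0 with edgeR on the compared groups, and 0 to 4 over the libraries left out (0 without WT-TAC replicate 3, 4 without HCN4F-TAC replicate 3). For the difference of TAC responses it was 1 with DESeq2 on all groups, 1 with no filter, and 0 to 2 over the libraries left out, with 2 without HCN4F-TAC replicate 3. These counts of the 9 are descriptions, since the genes were chosen with these comparisons known. Of the 16 activated fibroblast genes, the number called between the TAC groups was 6 with DESeq2 on all groups, 3 with DESeq2 on the compared groups, 1 with no filter (Tnc), 1 with non-robust fits (Thbs4) and 0 to 10 over the libraries left out (10 without HCN4F-TAC replicate 3). In WT hearts after TAC, edgeR and DESeq2 on the compared groups each called 1 of them (Ltbp2). In each case where the count moved, the cause was not tested, beyond the smaller number of libraries in the fits on the compared groups and in those with a library left out.

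Small log2 fold changes changed sign. For TAC against Sham in WT, Runx1 was 0.011 with no filter, 0.00181 with edgeR on the compared groups and 0.045 with the replicate block, and Scx was -0.025 with the block. Over the libraries left out in that comparison, Sox9 ranged from -0.13 to 0.16, Runx1 from -0.27 to 0.18, Scx from -0.016 to 0.14, Snai1 from -0.21 to 0.37 and Tbx18 from -0.00450 to 0.21. A fit without either WT-TAC library leaves 1, whose spread is taken to be like that of the other groups. In Sham hearts Runx1 ranged from -0.12 to 0.090, Meox1 from -0.069 to 0.15, Snai1 from -0.015 to 0.28 and Tcf21 from -0.012 to 0.19.

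The replicate numbers were not taken as pairing the samples, since residuals of same-numbered libraries correlated between -0.12 and 0.16 over 18 pairs, 2 of them above 0.1. The replicate block left the number of the 9 factors called at 0, 5, 0, 1 and 0 in the 5 comparisons, the same as without it. Depth limits single libraries more than group means for Runx1, Snai1, Twist1, Sox9 and Tbx18, which had 44 to 228 counts each.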

Other observations

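Tcf15, a helix-loop-helix factor known from somites and from heart capillaries, was the family gene that differed between the genotypes in Sham hearts. It measured 26.8, 26.4, 35.5 and 27.0 CPM in WT-Sham and 58.7, 68.0, 51.6 and 53.7 CPM in HCN4F-Sham, higher in 4 of 4 libraries without overlap. Its log2 fold change of 1.00 (SE 0.12; adjusted p = 0.000276, edgeR's quasi-likelihood test) was only just past the fold threshold, and DESeq2 on all groups called none of the 24 family genes there. After TAC it measured 37.8 and 43.9 CPM in WT and 47.7, 51.0, 52.9 and 39.7 CPM in HCN4F hearts, which overlapped, at a log2 fold change of 0.23 (SE 0.14). The difference of its TAC responses was -0.78 (SE 0.18; adjusted p = 0.315 by the same edgeR test). For this difference DESeq2 on all groups called 1 of the 24 family genes, which is not named here, beside 0.262% of tested genes.

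Sox10, a relative of Sox9 that directs glial fate and fell after TAC in HCN4F hearts, measured 2.41, 2.97, 2.28 and 2.93 CPM in HCN4F-Sham and 1.99, 0.527, 1.17 and 1.51 CPM in HCN4F-TAC. It was below HCN4F-Sham in 4 of 4 libraries and lowest in replicate 2, the library with the highest atrial level. In WT hearts its log2 fold change was -0.29 (SE 0.31; adjusted p = 0.613 by edgeR's quasi-likelihood test).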
